A study of Mus musculus with 6 samples.

Results

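The coat protein complex II (COPII) was described here through 10 genes in 6 tongue grafts of the mouse melanoma line B16F10. The set was chosen by the lower Sec23a level in the inhibition grafts, seen in an earlier reading of these libraries, and the other 9 genes were taken by name as its paralogues and coat partners, to see whether its lower level was shared. All 10 were found among 55487 gene IDs, and all 10 were among the 15666 genes that passed the count filter. Since Sec23a was chosen for its difference between the groups, its values are a description and are not tested here.

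COPII buds vesicles from the endoplasmic reticulum (ER), the first step of the route by which secreted and membrane proteins leave the cell. The small GTPase Sar1 is loaded with GTP at the ER membrane and recruits the inner coat, a pair of Sec23, which stimulates GTP hydrolysis by Sar1, and Sec24, which binds the cargo. Sec13 and Sec31 then form the outer cage. Vertebrates carry paralogues of most of these proteins, and inherited defects are known for several, among them SEC23A in a skeletal disorder with poor collagen export and SEC23B in an anaemia of red cell precursors.

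The series held 3 control and 3 inhibition grafts in wild-type C57BL/6J mice, whose age was not given in the sources used here. Cervical lymph nodes had been injected 6 weeks before the tumour cells were placed under the tongue mucosa. One vector, AAV2/retro-Trpv1-hM4D(Gi)-mCherry, brought the silencing receptor hM4D(Gi) and a red marker into sensory nerves of the nodes, and the other, AAV2/retro-Trpv1-mCherry, the marker alone. Deschloroclozapine, the ligand of that receptor, was given 2 times per day for 12 days. The design text gave both vectors with the ligand, whereas the sample labels called the controls vehicle-treated, so what the controls received is uncertain. The manipulated nerves lay outside the graft and no transgene was counted, so these libraries hold no check of the manipulation.

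RNA came from whole grafts, and the libraries held 14477277 to 20972494 counts. The 10 genes had 794 to 5122 counts per library, a counting error of 3.55% at the lowest and 1.40% at the highest, against a spread between replicates of 2.02% to 8.14% (SD over mean). The 7 melanoma markers were all detected in these grafts, with summed levels of 15570 to 23092 CPM, the unit of level used here, which sets each count against its TMM-scaled library size, in controls and 22164 to 26818 CPM under inhibition. Pmel, a melanosome matrix protein, stood at 4041 ± 1014 and 4889 ± 520.4 CPM (SD, n = 3 per group).

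Sec23a, the founder of this set and the GTPase-activating subunit of the inner coat, stood at 103, 102 and 90.8 CPM in control 1, 2 and 3 and at 69.2, 72.0 and 73.6 CPM in inhibition 1, 2 and 3. All 3 inhibition grafts lay below all 3 controls, and the inhibition grafts lay close together. The means were 98.5 ± 6.65 and 71.6 ± 2.20 CPM (SD, n = 3 per group). The log2 fold change was -0.46 with a standard error of 0.075, a percent change of -27.3. These are the values that chose the set. On GRCm38 the gene (ENSMUSG00000020986) lies on chromosome 12 from 58958383 to 59012017 on the minus strand and is protein-coding. The antisense gene Gm17529 overlaps 431 bases of its exons and had 0 to 8 counts per library, so reads of the 2 genes in that stretch could not be told apart where the counting ignored strand.

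Sec23b, the paralogue that shares the enzymatic role, stood at 108, 119 and 114 CPM in the controls and at 105, 99.3 and 95.5 CPM under inhibition. Its groups also did not overlap, but by a narrow margin between control 1 and inhibition 1. The log2 fold change was -0.18 (standard error 0.073, 95% interval -0.35 to -0.021), and Sec23b did not pass the test over all genes (edgeR adjusted p = 0.277). The bases before the start sites of Sec23a and Sec23b are shown because the pair serves 1 role from separate genes, with those of the outer-coat gene Sec31a beside them. They are 250 bases upstream of the RefSeq start on GRCm38.p6, given 5′ to 3′ on the gene's strand, at chr12:59012018-59012267 (minus), chr2:144555979-144556228 (plus) and chr5:100416235-100416484 (minus). Capitals mark any match to the motifs searched.
Sec23a: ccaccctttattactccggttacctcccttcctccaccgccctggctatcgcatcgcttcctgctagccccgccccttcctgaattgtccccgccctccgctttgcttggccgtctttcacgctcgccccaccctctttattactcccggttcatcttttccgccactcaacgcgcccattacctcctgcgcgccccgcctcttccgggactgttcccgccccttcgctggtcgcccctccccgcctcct
Sec23b: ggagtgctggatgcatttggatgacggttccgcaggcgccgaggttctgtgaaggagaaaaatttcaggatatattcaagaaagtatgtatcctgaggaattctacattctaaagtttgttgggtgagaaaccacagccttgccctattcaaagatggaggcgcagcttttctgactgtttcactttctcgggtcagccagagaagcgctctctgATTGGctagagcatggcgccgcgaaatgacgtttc
Sec31a: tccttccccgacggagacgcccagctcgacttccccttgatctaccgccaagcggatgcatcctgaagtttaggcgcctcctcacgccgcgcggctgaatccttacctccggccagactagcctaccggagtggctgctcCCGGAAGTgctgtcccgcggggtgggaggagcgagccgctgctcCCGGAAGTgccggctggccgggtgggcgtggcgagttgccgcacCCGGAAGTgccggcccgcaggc

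The windows differed in composition, with 64.0% G and C before Sec23a, 48.0% before Sec23b and 69.6% before Sec31a. Both strands were searched for the ER stress element, which is a CCAAT box followed after 9 bases of any kind by CCACG, the unfolded protein response core TGACGTG, the cyclic AMP element TGACGTCA, the CCAAT box on its own and the ETS site CCGGAAGT. Sec23a held none of them, Sec23b held 1 CCAAT box in reverse, and Sec31a held 3 ETS sites. Over all 12 RefSeq windows of the 10 genes, 0 held the ER stress element and 0 the cyclic AMP element. The unfolded protein response core lay in 1 (Sec24d), a CCAAT box in 4 and an ETS site in 3. For that Sec24d window and the Sec31a window not printed here, bases after the RefSeq start matched no GENCODE transcript of the gene. Of 32851 windows of the same length in the whole table, 0.113% held the ER stress element, 1.65% the unfolded protein response core, 1.55% the cyclic AMP element, 33.8% a CCAAT box and 2.88% an ETS site. These are matches of letters only.

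The Sar1 GTPases, which open coat assembly, were both lower in every inhibition graft than in any control. Sar1a stood at 161, 175 and 169 CPM in the controls and at 150, 156 and 136 CPM under inhibition. Its log2 fold change was -0.19 (standard error 0.077, edgeR adjusted p = 0.279). Sar1b, the paralogue whose loss impairs export of lipoprotein particles from the gut, stood at 83.1, 79.6 and 79.4 CPM against 72.5, 70.8 and 63.8 CPM. Its log2 fold change was -0.23 (standard error 0.076, edgeR adjusted p = 0.228), and neither gene passed the test.

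The 4 Sec24 genes, the cargo-binding side of the inner coat, were not alike. Sec24a stood at 63.8, 64.5 and 62.0 CPM in the controls and at 55.6, 58.2 and 52.8 CPM under inhibition, with no overlap (log2 fold change -0.19, standard error 0.074, edgeR adjusted p = 0.270). Sec24d, which like SEC23A is linked to skeletal disease, stood at 89.6, 94.6 and 90.8 CPM against 86.7, 82.2 and 73.8 CPM, again with no overlap (-0.18, standard error 0.079, edgeR adjusted p = 0.315). Sec24b, needed for neural tube closure, was the 1 coat gene with a positive log2 fold change. It stood at 87.5, 83.3 and 90.2 CPM in the controls and at 97.9, 88.1 and 95.4 CPM under inhibition. The groups overlapped and it did not pass (0.11, standard error 0.072, 95% interval -0.055 to 0.27, edgeR adjusted p = 0.493). Sec24c, the closest paralogue of Sec24d, stood at 132, 146 and 148 CPM against 153, 136 and 134 CPM. Its groups lay over each other, and the log2 fold change of -0.011 (95% interval -0.19 to 0.17, edgeR adjusted p = 0.960) changed sign with the scaling and with single libraries. An antisense gene, 6230400D17Rik, overlaps 214 exon bases of Sec24c and had 14 to 25 counts per library.

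Of the outer cage, Sec13 came closest to Sec23a and Sec31a differed little. Sec13, a beta-propeller protein that also serves in the nuclear pore and in a nutrient-sensing complex, stood at 267, 241 and 248 CPM in the controls and at 191, 202 and 196 CPM under inhibition. Every inhibition graft lay below every control, with means of 252 ± 13.4 and 196 ± 5.25 CPM (SD, n = 3 per group). The log2 fold change was -0.36 (standard error 0.070, 95% interval -0.52 to -0.20), a percent change of -22.1. It did not pass in edgeR (adjusted p = 0.130), whereas DESeq2 called it (adjusted p = 0.00121). Sec31a, its partner in the cage, stood at 207, 203 and 195 CPM against 191, 182 and 193 CPM. These groups were separated only by the gap between control 3 and inhibition 3, and the log2 fold change was -0.092 (standard error 0.066, edgeR adjusted p = 0.520).

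**Figure D1:**
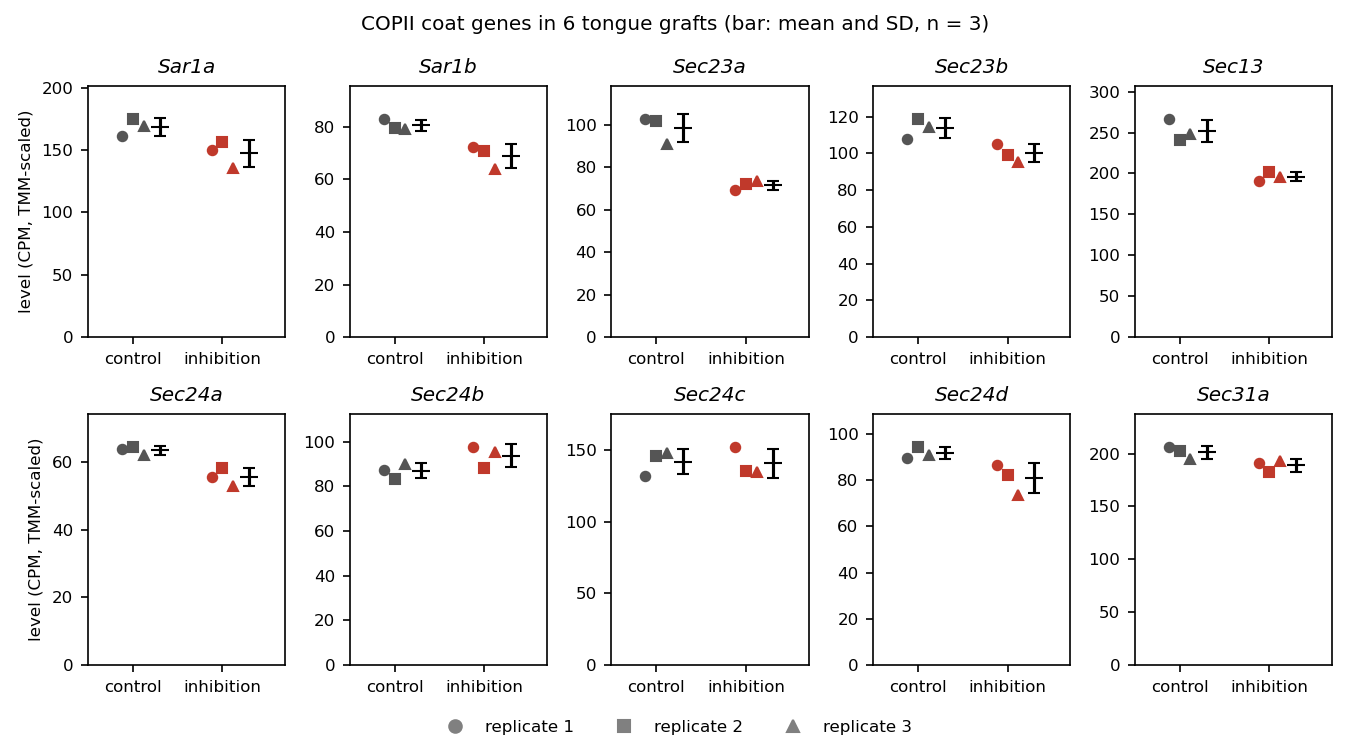
Level of each COPII coat gene (y axis, TMM-scaled CPM from 0) in the 3 control (grey) and 3 inhibition (red) grafts, with the mean and SD of each group as a black bar and the replicate number as the symbol. Sec23a and Sec13 show the widest gaps between the groups, Sec24c and Sec24b overlap, and a shared symbol stands for a shared number only.

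Read together, 8 of the 10 coat genes had every inhibition graft below every control, 7 of them besides Sec23a. Among all 15666 genes tested, 11.0% had their groups apart in that direction and 10.2% in the other, in which 0 coat genes had. A negative log2 fold change was found in 8 of the 9 other genes, against 49.0% of all genes, and their median was -0.18 beside a median of 0.0049 over all genes. None of the 9 passed: edgeR called 0, where it called 0.0383% of all genes, limma-voom called 0, and DESeq2 called 1 as lower (Sec13), where it called 1.23% of all genes lower. Without the count filter edgeR also called Sec13 as lower, where it called 439 of all 28841 genes lower and 4.12% in either direction. Of the 9, 6 had an unadjusted edgeR p under 0.05 on the lower side, where 7.00% of all genes did, and 0 on the higher side, where 8.36% did. That count was 6 without control 1, 2 without control 2 and 3 without control 3. Of all genes, 787 of 16233, 1390 of 16262 and 1094 of 15981 were lower at that p in those fits. The count was 4 without inhibition 1, 4 without inhibition 2 and 1 without inhibition 3, beside 655 of 16213, 933 of 15763 and 1152 of 15890. With the muscle level of each graft in the model the count was 3, beside 307 of 15666. The summed level of the 10 genes was 1299 ± 10.1 CPM in controls and 1144 ± 29.3 CPM under inhibition (SD, n = 3 per group), with a percent change of -11.9, and the sum includes Sec23a.

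**Figure D2:**
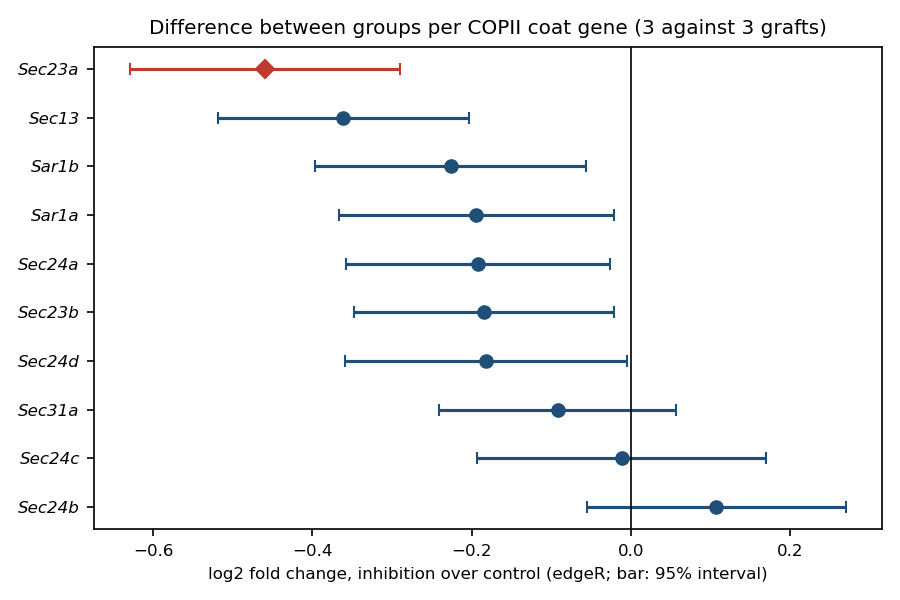
Log2 fold change of inhibition over control (x axis) for each COPII coat gene, with the unadjusted 95% interval from edgeR as a bar, and Sec23a, which chose the set, as a red diamond. The genes run from -0.46 for Sec23a through a middle group near -0.2 to 0.11 for Sec24b, and the intervals of Sec31a, Sec24c and Sec24b include 0.

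To set genes beside each other, levels were divided by the merged length of all annotated exons, which need not be that of the transcripts present. It ran from 1255 bases for Sar1b to 10683 for Sec24a, and the order rests on it. Before division Sar1b lay below Sar1a, at 80.7 and 168 CPM in controls. Per kilobase of exon, Sec13 stood highest at 70.3 CPM per kilobase (mean of 6 libraries), followed by Sar1b (59.7), Sar1a (42.2) and Sec31a (24.8). Then came Sec24c (22.5), Sec23a (17.6), Sec23b (16.95), Sec24b (15.02), Sec24d (13.6) and Sec24a (5.57). The steps from Sar1b to Sar1a, from Sar1a to Sec31a and from Sec24d to Sec24a were wider than the full range of the libraries. The other neighbours overlapped over the 6 libraries, a range that holds the difference between the groups as well. Within each group Sec13 lay above Sar1b without overlap, at 75.7 to 83.8 against 63.2 to 66.2 CPM per kilobase in controls and 60.0 to 63.3 against 50.8 to 57.7 under inhibition. Sec31a lay above Sec24c, and Sec23b above Sec24b, without overlap in the controls alone, and Sec24c above Sec23a, and Sec24b above Sec24d, under inhibition alone. Sec23a and Sec23b overlapped in both groups. The mean of Sec23a was 20.4 ± 1.37 CPM per kilobase in controls, beside 18.03 ± 0.869 for Sec23b, and 14.8 ± 0.454 under inhibition, beside 15.9 ± 0.786 for Sec23b (SD, n = 3 per group).

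**Figure D3:**
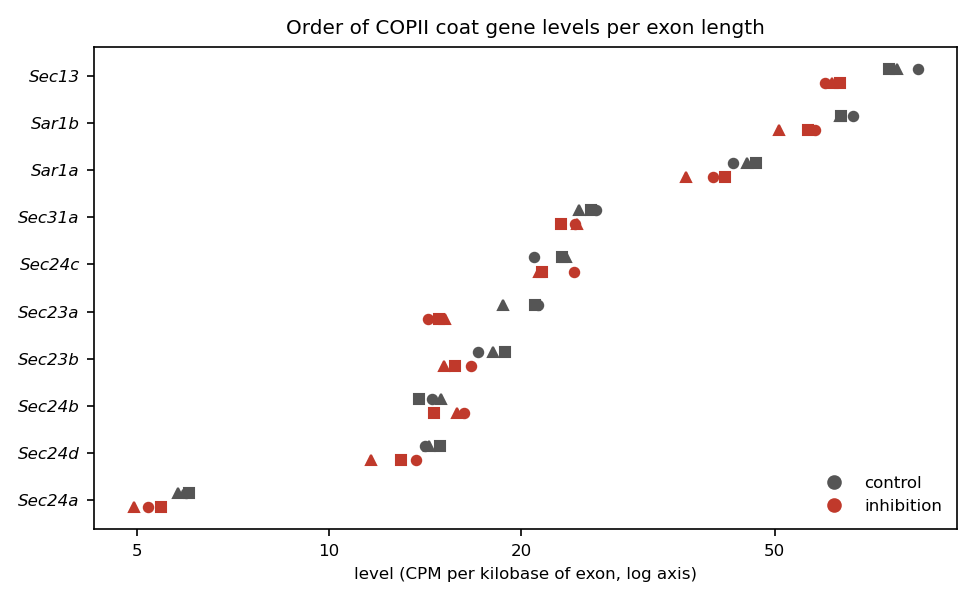
Level per exon length (x axis, CPM per kilobase, log axis) of the 10 COPII coat genes in each control (grey) and inhibition (red) graft, with the replicate number as the symbol, ordered by the mean of the 6 libraries. Sec13 and the Sar1 genes form the upper end, Sec24a lies alone at the lower end, and the inhibition grafts lie left of the controls in 8 rows.

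Within each paralogue family the make-up was then compared on the same per-kilobase scale. Sec23a made up 55.4%, 52.7% and 50.9% of the Sec23 pair in the controls and 46.1%, 48.6% and 50.1% under inhibition, a shift of -4.75 percentage points that follows from the choice of Sec23a. The summed Sec23 level was 38.4 ± 1.5 CPM per kilobase in controls and 30.7 ± 0.332 under inhibition (SD, n = 3 per group; percent change -20.1). The group mean of Sec23b, like that of Sec23a, was lower under inhibition. Within the inhibition group the 2 genes ran in opposite order over inhibition 1, 2 and 3. Sec23a stood there at 69.2, 72.0 and 73.6 CPM and Sec23b at 105, 99.3 and 95.5 CPM. In control 1, 2 and 3 Sec23a stood at 103, 102 and 90.8 CPM and Sec23b at 108, 119 and 114 CPM. Whether the level of 1 gene follows that of the other was not tested. In the Sec24 family, Sec24b took 25.2% ± 1.18 in controls and 27.9% ± 1.40 under inhibition, and Sec24d 25.2% ± 0.689 and 22.8% ± 1.08, each without overlap between the groups. Sec24c had the largest share, at 39.2% ± 1.37 and 40.0% ± 0.714. The summed Sec24 level overlapped between the groups, at 57.4 ± 1.63 and 56.0 ± 3.03 CPM per kilobase (percent change -2.58). The Sar1 sum was 109 ± 0.876 against 94.4 ± 6.29 CPM per kilobase (percent change -13.7) with overlapping shares, Sar1b taking 58.8% ± 1.59 and 58.3% ± 0.805. With 3 against 3 grafts an exact permutation test cannot go below 0.1, so these shares are given as descriptions.

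**Figure D4:**
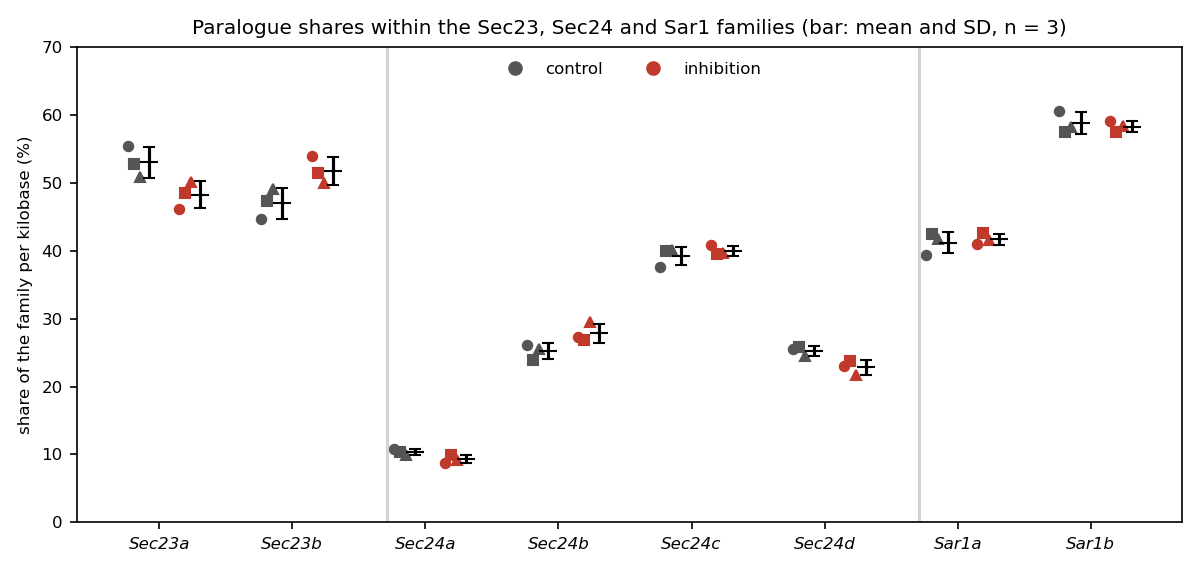
Share of each paralogue in its family (y axis, percent of the family's CPM per kilobase) in the control (grey) and inhibition (red) grafts, with the mean and SD as a black bar and grey lines between the families. The Sec23a share is lower and the Sec24b share higher in the inhibition grafts, and the Sar1 shares overlap.

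Chromosome positions added a few facts to these values. Sec24a and Sar1b lie head to head on chromosome 11, with 52 bases between their outermost GENCODE M21 starts (Sec24a 51692264 to 51763634 on the minus strand, Sar1b 51763687 to 51791925 on the plus strand), and both had groups that did not overlap. The bases between the GENCODE start of Sec24a and the RefSeq start of Sar1b are shown as part of this gap. GENCODE starts Sar1b further on, at 51763687. The bases lie at chr11:51763635-51763662 on GRCm38.p6, plus strand, and none of the searched motifs lies in them.
Between Sec24a and Sar1b: gcggggcctgggacctgcggactgtcac

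RefSeq places the start of Sec24a elsewhere, at 51756834, so a shared start region rests on the GENCODE model alone. Sec24d (chromosome 3, 123267455 to 123365641, plus strand) begins 31.3 kilobases from the start of Synpo2, a gene of the minus strand that lies head to head with it and whose protein binds actin in muscle. Synpo2 rose from 15.2 ± 2.47 to 37.5 ± 4.05 CPM (SD, n = 3 per group; edgeR adjusted p = 0.0334), while Sec24d stood at 91.7 ± 2.63 and 80.9 ± 6.58 CPM. Synpo2 was named after its values were seen. The remaining genes lie on separate chromosomes: Sec23b on 2 (144556229 to 144590749), Sec24b on 3 (129982759 to 130061553), Sec31a on 5 (100361649 to 100416234), Sec13 on 6 (113728062 to 113740743), Sar1a on 10 (61680299 to 61693297) and Sec24c on 14 (20674308 to 20694852), with Sec24b on the same chromosome as Sec24d. All are annotated as protein-coding.

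Across the 6 libraries the correlations between pairs of coat genes ran from -0.85 to 0.96. The Pearson correlation of log2 CPM with Sec23a was highest for Sec13 (0.96) and lowest for Sec24b (-0.77), with Sec24a at 0.90, Sec31a at 0.85 and Sec23b at 0.76. The 45 gene pairs had a median of 0.70, and 34 of them were positive. Among 9447 genes of at least 10 CPM, the 5 most like Sec23a were Ccdc71l (0.99), Rnmt, the cap methyltransferase of messenger RNA (0.99), Copb1, a subunit of the coat that carries vesicles back to the ER (0.99), Dcun1d5, a neddylation factor (0.99), and Commd7 (0.98). These values rest on 6 libraries in 2 groups, so each holds the difference between the groups, and the genes share the libraries and their scaling. The log2 fold changes of the 5 genes were -0.33, -0.34, -0.29, -0.24 and -0.20. The genes were picked for likeness to Sec23a, itself chosen for its lower level in these libraries. The direction of their changes follows from that choice, so these values are a description only.

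The machinery around the coat was read from 5 further lists with 67 genes, 66 of them tested. Of these edgeR called 0, limma-voom called 0 and DESeq2 called 5, all lower, where it called 1.23% of all genes lower. On the lower side 12 had an unadjusted edgeR p under 0.05, beside 7.00% of all genes, and on the higher side 1, beside 8.36%. The DESeq2 calls were Gosr2 and 4 subunits of the COPI coat, Copa, Copb1, Copb2 and Cope. The 14 genes of COPII assembly had a median log2 fold change of -0.067, with 13 negative (49.0% of all genes were), 3 lower at an unadjusted p under 0.05 (7.00% of all genes) and 3 without overlap (11.0%). Pdcd6, a calcium-binding partner of Sec31a, stood at 80.4 ± 2.29 and 67.5 ± 1.90 CPM (SD, n = 3 per group; log2 fold change -0.25, edgeR adjusted p = 0.186). The collagen export receptors had log2 fold changes of -0.27 for Mia2 and -0.16 for Mia3, known as TANGO1 (edgeR adjusted p = 0.247 and 0.286). Preb, the exchange factor that loads Sar1, stood at -0.0092, and Sec31b, the scarce paralogue of Sec31a, at 0.32 with a control mean of 2.63 CPM (edgeR adjusted p = 0.972 and 0.687).

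Among 19 export receptors and vesicle SNAREs, the proteins that load cargo and fuse vesicles with the Golgi, the median was -0.058, with 13 negative, 3 lower at an unadjusted p under 0.05 and 5 without overlap, beside 49.0%, 7.00% and 11.0% of all genes. Gosr2, a Golgi SNARE, stood at 254, 239 and 240 CPM in controls and at 193, 205 and 183 CPM under inhibition. Its log2 fold change was -0.33 (standard error 0.072; edgeR adjusted p = 0.162). Sec22b, a SNARE carried on the vesicles, had -0.23 and Tmed9, a p24 cargo receptor, -0.25 (edgeR adjusted p = 0.222 and 0.235).

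The COPI coat, which returns vesicles from the Golgi to the ER, had 10 of 11 genes negative with a median of -0.17. In 8 of the 11 every inhibition graft lay below every control, beside the same 11.0% of all genes, and 6 were lower at an unadjusted p under 0.05, beside 7.00%. Copb1 stood at 221, 214 and 205 CPM in controls and at 174, 177 and 173 CPM under inhibition. The log2 fold changes were -0.29 for Copb1, -0.31 for Cope and -0.27 for Copb2, and none passed in edgeR (adjusted p = 0.165, 0.166 and 0.178). Gbf1, which activates the Arf1 GTPase of this coat, was the 1 positive gene (0.046, edgeR adjusted p = 0.858).

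Clathrin and its adaptors, a coat of the later pathway, were evenly split, with 6 of 12 negative, a median of -0.023, an unadjusted p under 0.05 in 0 lower genes and 1 higher gene, and 1 gene without overlap on each side. Of all genes 7.00% were lower and 8.36% higher at that p, and 11.0% and 10.2% lay without overlap on the lower and higher side, so these counts of 1 in 12 are near the background. The light chain gene Cltb had a log2 fold change of 0.18, the adaptor gene Ap1s1 -0.18 and the heavy chain gene Cltc -0.14 (edgeR adjusted p = 0.289, 0.353 and 0.405). No test of 1 list against another was made.

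Regulators known to act on secretory genes showed no call either. Of 11 listed, 10 were tested, Creb3l4 being too low. Their median was -0.044, with 7 negative, beside 49.0% of all genes. Groups without overlap were found in 0 of them, beside 11.0% of all genes on the lower side and 10.2% on the higher. An unadjusted edgeR p under 0.05 was found in 0, beside 7.00% lower and 8.36% higher. In a list of 10 genes, counts of 0 are near these shares. Xbp1, a factor of the unfolded protein response, stood at 143 ± 18.9 and 141 ± 21.1 CPM (SD, n = 3 per group; log2 fold change -0.026, edgeR adjusted p = 0.939). Atf4, the amino acid stress factor, had a log2 fold change of -0.25, Creb3 -0.22 and the ER stress sensor gene Ern1 -0.21 (edgeR adjusted p = 0.376, 0.335 and 0.391). Creb3l2, a factor known to drive Sec23a in cartilage, had 0.073 and Creb3l1 0.27 (edgeR adjusted p = 0.687 and 0.533).

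**Figure D5:**
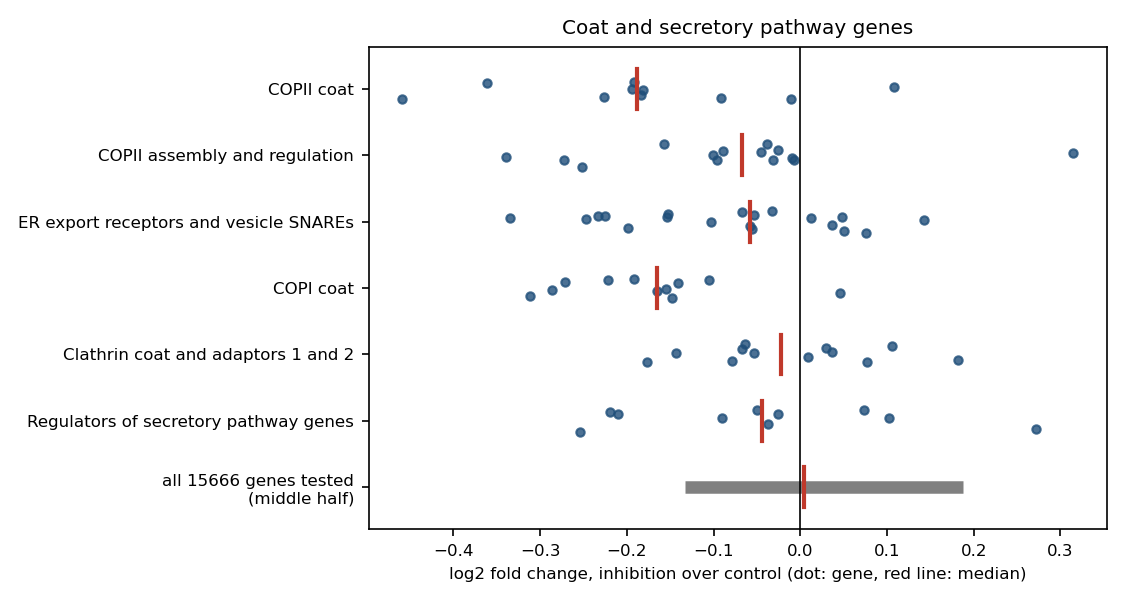
Log2 fold change of inhibition over control (x axis) of each tested gene (dots) in the COPII coat and 5 further lists, with the list median as a red line, and the middle part of all 15666 genes, from lower to upper quartile (-0.13 to 0.19), as a grey bar at the bottom. The medians of the COPII and COPI coats lie furthest to the left, at -0.19 and -0.17, and those of clathrin and of the regulators lie near 0. The COPII dots and median include Sec23a, which was chosen for its lower level, and without it that median is -0.18.

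Summed marker levels of 4 further cell types, skeletal muscle, fibroblasts, neutrophils and endothelium, did not overlap between the groups, while those of melanoma, squamous epithelium and macrophages did. Of the single markers edgeR called 0 and limma-voom 0. DESeq2 called 5 of the muscle, 6 of the fibroblast, 2 of the squamous, 2 of the endothelial and 1 of the macrophage markers higher. It called 2.23% of all genes higher. Lower calls were made for 2 of the neutrophil and 1 of the macrophage markers, beside 1.23% of all genes. At an unadjusted edgeR p under 0.05, 7 muscle, 7 fibroblast, 3 squamous, 4 endothelial and 2 macrophage markers were higher, beside 8.36% of all genes. At that p 4 neutrophil markers and 1 macrophage marker were lower, beside 7.00% of all genes. In bulk tissue, fewer cells of a type and less RNA per cell cannot be told apart. All 10 skeletal muscle markers were positive, and their summed level was 788 to 1731 CPM in controls and 2166 to 3629 CPM under inhibition; Ttn, the giant sarcomere protein, stood at 133 ± 40.5 and 364 ± 73.5 CPM. All 9 fibroblast and matrix markers were positive, with sums of 1666 to 2340 and 2553 to 3248 CPM, and Col1a1, a major cargo of COPII in fibroblasts, stood at 152 ± 22.8 and 230.4 ± 32.0 CPM. All 7 neutrophil markers were negative, with sums of 35.6 to 84.8 and 8.34 to 29.5 CPM, and S100a8 stood at 15.02 ± 7.35 and 1.75 ± 2.65 CPM (SD, n = 3 per group throughout). Endothelial markers were all positive (5 of 5, 123 to 196 and 219 to 260 CPM), squamous epithelium markers positive in 8 of 9 (1131 to 2620 and 1460 to 4682 CPM) and macrophage markers in 5 of 7 (141 to 219 and 188 to 220 CPM). No marker of any list was at 0 in all libraries. With the muscle level of each graft in the model, the log2 fold changes of Sec23a, Sec13 and Sec31a were -0.43, -0.25 and -0.059, nearer 0 than without it. Those of Sec23b, Sar1a, Sec24d, Sec24a, Sar1b, Sec24c and Sec24b were -0.34, -0.37, -0.35, -0.26, -0.27, -0.17 and 0.17, further from 0. The muscle level (mean log2 CPM of its markers) was 5.57 to 6.93 in controls and 7.10 to 7.91 under inhibition. The model can therefore hardly separate it from the group. None of the 9 genes other than Sec23a was called in that model (edgeR adjusted p of 1.0 for each). At an unadjusted p under 0.05, 3 were lower, beside 307 of all 15666 genes in the same model. DESeq2 and limma-voom were not run with it. The part of the other cell types in the coat values was not tested.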

How the data were processed

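The authors deposited an unnormalized count of reads for each Ensembl gene in each library. Alignment was with HISAT2 2.0 to mm10, per the submitters' processing notes. The program that counted, annotation, strand setting and handling of reads with several matches are not given in the sources used here. Columns were assigned by name (0 left unused): those of the controls carry the group and number of the sample titles, whereas those of the inhibition grafts are headed "nociceptive denevation" with the number, in place of the titles' nerve inhibition, and were matched on the word nociceptive and the number. Genes were kept with filterByExpr (count minimum 10, total minimum 15), scaled with TMM factors, and the 3 inhibition libraries compared with the 3 controls in edgeR 4.0.16 (R 4.3.3) by its quasi-likelihood test, with Benjamini-Hochberg adjustment over all genes, called under 0.05. The standard error is the absolute log2 fold change over the square root of F. Levels are CPM after TMM scaling, and likeness to Sec23a used log2 CPM with a prior count of 2. Whether each sample was a separate animal is not said in the labels, so a p-value covers the spread among these 6 samples, which may be technical. Exon lengths and coordinates came from GENCODE M21 (GRCm38, the assembly of mm10), promoters from RefSeq (GRCm38.p6); all 10 coat genes matched by symbol.

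The members and lists were chosen with earlier results of these data known. Named were all coat genes, the called genes or 3 of smallest p of each further list (Preb, Sec31b and Gbf1, and the DESeq2 calls, were added after their values were seen), 4 regulators, the 5 genes most correlated with Sec23a and 1 marker of each of 4 cell types. Alternatives were RLE and upper-quartile factors, other filters, DESeq2 1.42.0, limma-voom (limma 3.58.1), a replicate block, a muscle covariate and each library left out. The fit was tested on simulated data.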

Additional observations from a re-analysis of the deposited data

How the results depend on the processing

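The direction of 9 coat genes was the same under all 14 alternatives run, and Sec24c, close to 0, turned positive under upper-quartile factors (0.00024) and without control 3 (0.016), inhibition 2 (0.0064) or inhibition 3 (0.0094), its range with 1 library left out being -0.080 to 0.016. The log2 fold change of Sec23a ran from -0.47 to -0.43 over the 8 other settings and from -0.52 to -0.43 with 1 library left out. Sec13 was also called by edgeR without the count filter (adjusted p = 0.00238, log2 fold change -0.37) and by DESeq2 (0.00121, -0.36). Its adjusted p ranged from 0.00121 to 1.0 over all alternatives. The count of called coat genes other than Sec23a was thus 1 in both, and 0 in the other 12. Of the further genes, 4 of the 67 tested without the filter were called there, all lower. In that fit 439 of all 28841 genes were called lower, and 4.12% in either direction. DESeq2 called 5 of 66, all lower, where it called 1.23% of all genes lower. Over all genes the 6 calls became 1187 without the filter, 541 with DESeq2, 0 with limma-voom, 14 with the replicate block and 0 with the muscle covariate, and 0 to 217 with 1 library left out; the cause was not tested. Whether replicate numbers pair the samples was not settled. Deviations of same-numbered libraries correlated at -0.18, 0.33 and 0.087, too few values to decide. Control 2, control 3 and inhibition 2 correlated best with their own number, and control 1, inhibition 1 and inhibition 3 did not. The replicate block changed no call among the coat genes other than Sec23a, of which 0 were called without it (log2 fold change of Sec23a -0.46, of Sec13 -0.36). The differences in paralogue share between the groups kept their direction for Sec23a, Sec23b, Sec24a, Sec24b and Sec24d without division by exon length and with each library left out, whereas without control 1 those of Sec24c (0.75 to -0.041 percentage points) and Sar1a (0.53 to -0.37, Sar1b being its complement) changed sign. The shares themselves depend on that division: Sar1a made up 67.6% of its pair in controls without it and 41.2% with it, and Sec23a 46.4% and 53.0%. Both the 3 grafts per group and the read depth limit these comparisons. The counting error of Sec24a was 3.55% at its lowest count, 794 in inhibition 1. Its replicate spread was 2.02% in controls, where its counts were 992 to 1282, and its level under inhibition was 55.6 ± 2.71 CPM (SD, n = 3). Counting errors do not cover variation between animals.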
